A study of Mus musculus with 4 samples.

Results

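The anti-apoptotic genes of the BCL2 family were followed in 32D-EpoR cells grown with and without erythropoietin (Epo). The rule named 8 genes (Bcl2, Bcl2l1, Bcl2l2, Mcl1, Bcl2a1a, Bcl2a1b, Bcl2a1c and Bcl2a1d) and took every gene probe that carries one of these names on the array. It found 9 probes of 6 genes, among 55681 gene probes with 36413 different gene names. No probe carried the names Bcl2a1a or Bcl2a1b. Of the 9 probes, 8 were bright enough to be tested, together with 23735 probes in all.

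32D cells are mouse myeloid progenitors that need interleukin-3 to grow, and the EpoR line derived from them carries an introduced Epo receptor. All cells were washed out of WEHI-conditioned medium, which supplies interleukin-3, into RPMI with 10% FBS. The group with Epo then received 10 U/ml, and the group without Epo received none, so these controls are cells deprived of cytokine. Every group has 2 Cy3 arrays, 1 from each of 2 independent experiments that used cells of different passages. How long the cells saw Epo is not stated in the labels. The results describe 1 cell line, with 2 arrays per group limiting the precision of every value.

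The proteins of this family guard the outer membrane of mitochondria. They bind BAX and BAK, which open that membrane and release cytochrome c, and they also bind the BH3-only proteins that set BAX and BAK in motion. Blood cells that lose their cytokine usually die along this route, and BCL-XL, the product of Bcl2l1, is known for keeping erythroid precursors alive. MCL1 is needed by many blood progenitors and turns over quickly, while A1, encoded by Bcl2a1 genes, is made mainly in blood cells. Whether Bcl2a1c yields a full A1 protein was not examined here.

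The sequences read by 3 of the probes, shown because they lie in coding stretches of the genes whose changes are described here, were as follows in the sense direction. The Bcl2l1 probe A_52_P510877 lies on the minus strand at chr2:152655185-152655244 in mm9, the build named in the file headers, the Bcl2 probe on the minus strand at chr1:108608970-108609029, and the Bcl2a1c probe on the plus strand at chr9:114239422-114239481.
Bcl2l1: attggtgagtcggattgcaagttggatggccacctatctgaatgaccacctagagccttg
Bcl2: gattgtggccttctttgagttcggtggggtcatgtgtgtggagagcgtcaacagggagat
Bcl2a1c: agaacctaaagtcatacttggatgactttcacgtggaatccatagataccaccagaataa
The Bcl2a1 genes are near-identical copies on chromosome 9. The file lists transcripts of 3 of them, Bcl2a1a, Bcl2a1b and Bcl2a1d, for the probe named Bcl2a1d, at chr9:88618165-88618224 on the minus strand. Its signal is therefore the joint signal of these copies, and no value below belongs to Bcl2a1a, Bcl2a1b or Bcl2a1d alone. For the probe of Bcl2a1c the file lists that copy alone. How far it also captures transcripts of the other copies was not analysed here.

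Most of the family read higher with Epo than in the cells deprived of cytokine. No array holds cells kept in interleukin-3, so rises and falls here are relative to the deprived cells. Of the 8 probes tested, 6 rose and 0 fell (limma, adjusted p under 0.05), and these 6 carry 5 gene names: Bcl2l1, Bcl2a1c, Bcl2a1d, Mcl1 and Bcl2. Bcl2l1 moved most, and its calls alone held with any 1 of the 4 arrays left out, whereas Bcl2l2 was not called. Among all 23735 probes tested 25.9% were called, 13.0% as higher and 12.9% as lower. The median change of the 8 probes was 0.88 on the log2 scale against -0.040 for all probes tested. No probe on the array was called when the dim probes were kept in the fit. That setting raised the number of tests to 55672. It also raised the limma SE, for the Bcl2l1 probe A_55_P1974877 from 0.12 to 0.19 with the change the same. All values below are log2 signals after scaling each array to its 75th percentile, and a change is the mean with Epo minus the mean without.

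**Figure D1:**
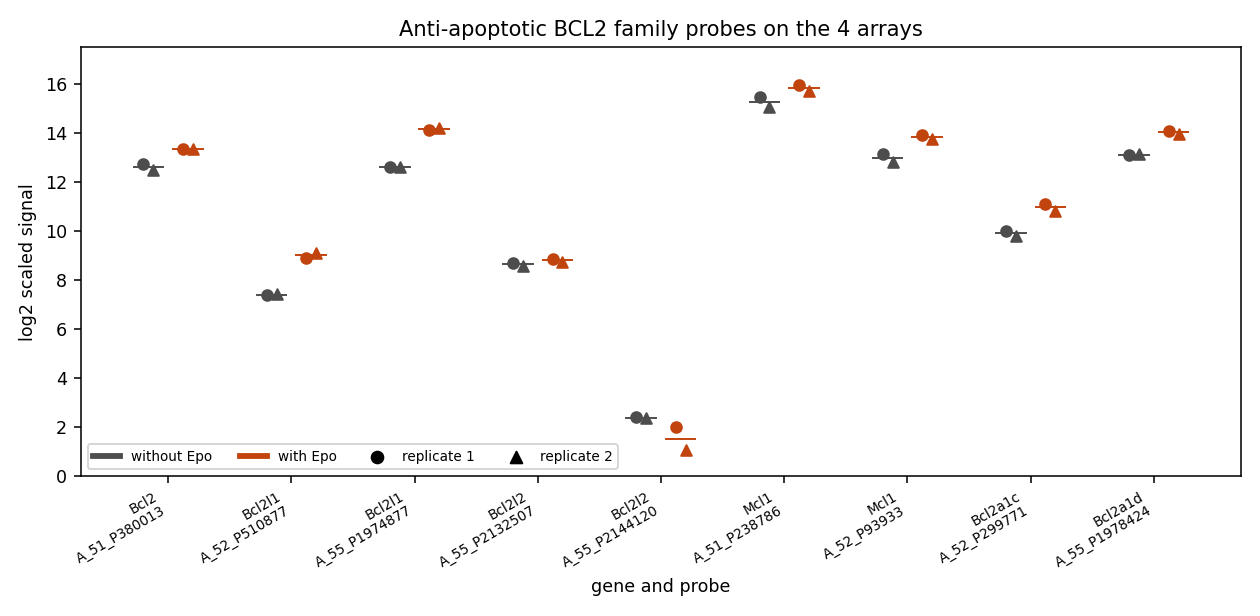
Log2 scaled signal (y axis) of the 9 probes (x axis) on the 4 arrays, grey without Epo and orange with Epo, with circles for replicate 1, triangles for replicate 2 and a line at each group mean. For the 8 probes tested both arrays with Epo lie above both arrays without it; the second Bcl2l2 probe, A_55_P2144120, sits between 1.07 and 2.40, not well above background on any array.

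Bcl2l1 encodes BCL-XL and, by splicing, a short form that promotes death. Its downstream probe, A_55_P1974877 at chr2:152606404-152606463, read 12.62 and 12.63 without Epo and 14.12 and 14.21 with Epo. The arrays of a group lay close together and the groups were far apart. The change was 1.54 ± 0.12 (SE), 2.91-fold (limma adjusted p 0.0059). The coding probe printed above, 48781 bases away on the genome, read 7.39 and 7.42 without Epo and 8.92 and 9.10 with Epo. Its change was 1.61 ± 0.13 (SE), or 3.04-fold (limma adjusted p 0.0061). The changes of these probes differed by 0.066, less than either SE, although the probes sit in different parts of the gene. With another background correction (normexp) they lay further apart. There the coding probe changed by 1.32 ± 0.12 (SE) and the downstream probe by 1.65 ± 0.12 (SE). Which splice forms each probe reads was not analysed here. Within replicate 1 the probes rose by 1.49 and 1.53, and within replicate 2 by 1.59 and 1.68. The calls of both Bcl2l1 probes held with any 1 array left out (adjusted p 0.0135 to 0.0205).

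The Bcl2a1 genes rose on both of their probes. A1 is a short-lived protein that binds BIM and PUMA, among other BH3-only proteins. The probes read RNA, and A1 protein was not measured. The probe shared by Bcl2a1a, Bcl2a1b and Bcl2a1d read 13.11 and 13.13 without Epo and 14.07 and 13.98 with Epo. Both groups were tight, and the change was 0.91 ± 0.12 (SE), 1.87-fold (limma adjusted p 0.012). The Bcl2a1c probe read 10.01 and 9.79 without Epo and 11.12 and 10.80 with Epo. It rose by 1.06 ± 0.17 (SE), or 2.09-fold (limma adjusted p 0.018), and its arrays were more spread than those of the shared probe. The 95% intervals of these changes, 0.59 to 1.22 and 0.61 to 1.51, overlapped over most of their length. Both calls were lost without replicate 1 of the Epo group, with adjusted p 0.0651 for the shared probe and 0.0678 for Bcl2a1c, and both held without any of the other 3 arrays.

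Mcl1 was read by 2 probes, 1312 bases apart on the plus strand of chromosome 3, and only the upstream probe passed. That probe, A_52_P93933 at chr3:95465543-95465602, read 13.15 and 12.83 without Epo and 13.91 and 13.77 with Epo. It rose by 0.85 ± 0.16 (SE), 1.80-fold (limma adjusted p 0.026). The downstream probe, A_51_P238786 at chr3:95466855-95466914, read 15.46 and 15.05 without Epo and 15.98 and 15.73 with Epo. Its change of 0.60 ± 0.19 (SE) did not pass (limma adjusted p 0.086). With the replicate number as a block it did (limma adjusted p 0.026), and the average of both probes changed by 0.72 with an adjusted p of 0.041. On both probes replicate 1 was brighter than replicate 2 in each group, and the groups did not overlap. The call of the upstream probe held only when replicate 1 without Epo was the array left out. Leaving out replicate 2 without Epo gave an adjusted p of 0.0670, and leaving out an array with Epo gave 0.108 for replicate 1 and 0.0708 for replicate 2.

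Bcl2, the founding member of the family, rose by the smallest amount among the called probes. Its probe read 12.75 and 12.49 without Epo and 13.34 and 13.35 with Epo. The arrays with Epo almost coincided, while those without Epo lay further apart. The change was 0.73 ± 0.14 (SE), 1.66-fold (limma adjusted p 0.027). For this probe the file lists 1 RefSeq transcript, that of transcript variant 2. Whether it also reads the other variant was not examined. Dropping replicate 2 without Epo ended the call (adjusted p 0.0809), as did dropping an array with Epo, replicate 1 (0.110) or replicate 2 (0.107).

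Bcl2l2, which encodes BCL-w, was the member without a call. Its upstream probe, A_55_P2132507 at chr14:55506840-55506899, read 8.71 and 8.56 without Epo and 8.88 and 8.74 with Epo. The arrays with Epo were above those without, but by about as much as the replicates of a group differed from each other. The change was 0.17 ± 0.13 (SE) with a limma adjusted p of 0.38. Its 95% interval ran from -0.18 to 0.53, so a rise of the size seen for either Bcl2l1 probe lies outside it. The other probe, 168 bases downstream, was not well above background on any array, at 2.40 and 2.37 without Epo and 1.98 and 1.07 with Epo, and was not tested.

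**Figure D2:**
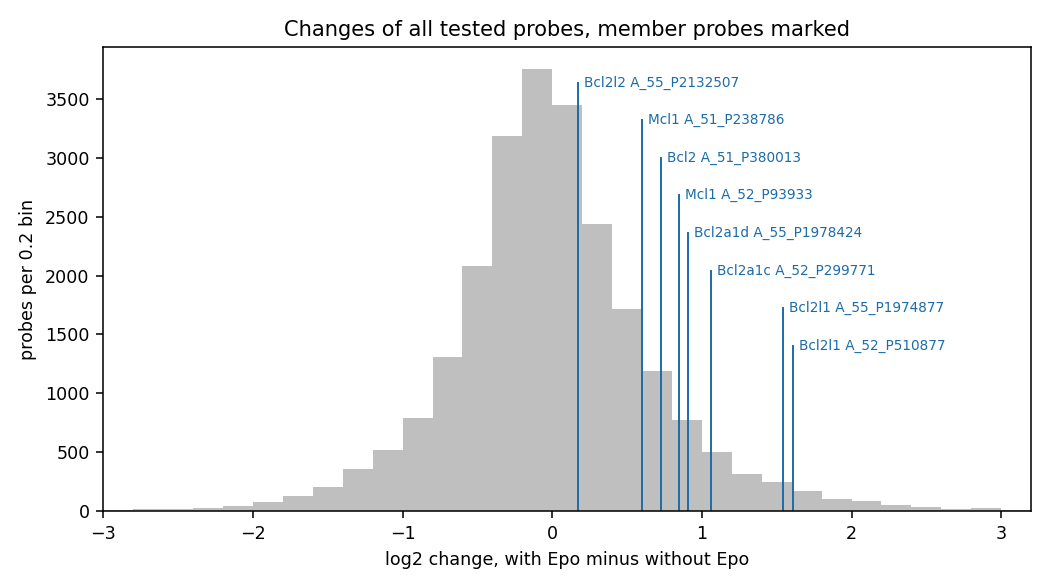
Number of tested probes (y axis) in bins of 0.2 of the log2 change with Epo (x axis), with the 8 tested probes of the family marked by blue lines whose height carries no meaning. The axis leaves out 32 probes below -3 and 65 above 3; the family's probes stand between 0.17 and 1.61, right of the median of all probes at -0.040.

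By size the order was Bcl2l1 (1.61 and 1.54), Bcl2a1c (1.06), the shared Bcl2a1 probe (0.91), Mcl1 (0.85 and 0.60), Bcl2 (0.73) and Bcl2l2 (0.17). Neighbours from Bcl2a1c down to Bcl2 had overlapping 95% intervals and cannot be ordered. The intervals of both Bcl2l1 probes, 1.26 to 1.95 and 1.23 to 1.85, stood clear of those of Bcl2 (0.36 to 1.1) and of the downstream Mcl1 probe (0.087 to 1.11). They overlapped that of Bcl2a1c, and that of the upstream Mcl1 probe (0.42 to 1.28) by little. Among all probes tested, the changes of the Bcl2l1 probes ranked at the 97.4th and 97.7th percentile, those of the Bcl2a1 probes at the 91.8th and 93.9th. The Mcl1 probes ranked at the 84.9th and 90.8th, Bcl2 at the 88.3rd and Bcl2l2 at the 65.7th. The Bcl2l1 rise was thus large for these arrays, while changes such as that of Bcl2 were matched or exceeded by more than 1 in 10 probes.

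All 8 probes had both arrays with Epo above both without, and so did 31.6% of all probes tested, while 36.7% had both below. The direction of the 8 changes did not depend on the scaling. Without scaling the median of all probes moved to 0.71, because the arrays with Epo were brighter, and 11329 probes rose against 477 that fell, in place of 3084 against 3059. All 8 family probes then passed, with 47.7% of all probes rising. Each family probe had the same limma SE there, 0.33, so these calls rested on the size of the change and not on the probe's own spread. Bcl2l2 lay at 0.92 there, close to that median, and the Bcl2l1 probes at 2.29 and 2.35. With the percentile taken over detected probes the split was 2498 rising against 4342 falling, the same 6 family probes were called, and Bcl2l2 lay at 0.049. With the replicate block 4711 probes rose (19.8%) and 4876 fell, and 7 of the 8 family probes were called, the downstream Mcl1 probe being the addition.

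**Figure D3:**
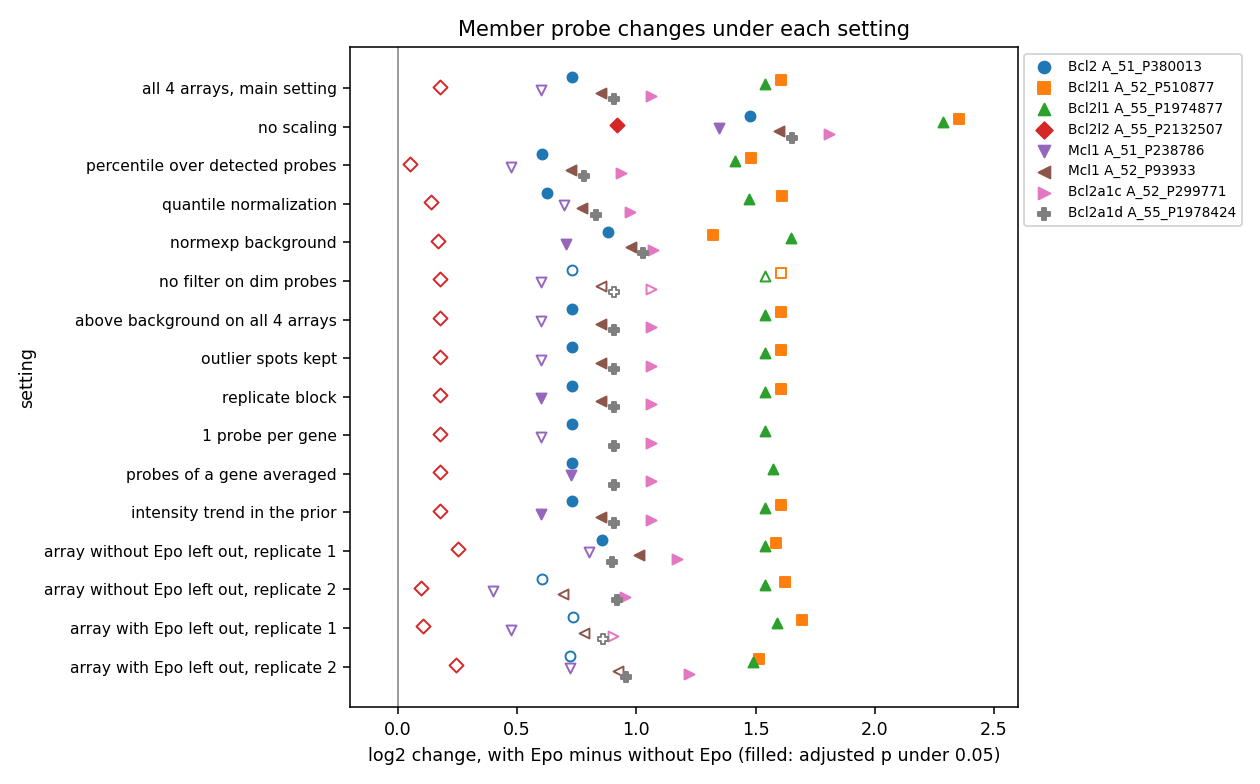
Log2 change with Epo (x axis) of the 8 tested probes under the main setting and 15 alternatives (y axis), with symbols filled where the limma adjusted p was under 0.05. Every change lies above 0, the Bcl2l1 probes stand furthest right in each setting, and no probe is called when dim probes are kept in the fit.

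The opposing arm of the family moved the other way in part. Of 5 BH3-only genes tested, 3 fell and 0 rose, against 13.4% of 17545 genes lower when each is read by its brightest probe (25.9% called in either direction). Bmf, whose product senses detachment and other stress, read 8.81 and 8.79 without Epo and 6.99 and 6.70 with Epo, a change of -1.95 ± 0.15 (SE; limma adjusted p 0.0059). Bcl2l11, which encodes BIM, a main killer after cytokine loss, read 6.64 and 6.68 without Epo and 5.06 and 5.27 with Epo. It changed by -1.50 ± 0.13 (SE, limma adjusted p 0.0069). The Bcl2l11 call held with the normexp background and without scaling, but the change was smaller there, at -0.96 and -0.76. Bbc3, which encodes PUMA, fell by 1.32 on the log2 scale (limma adjusted p 0.013), a call lost without scaling, where its change was -0.58. Bad and Bid, at -0.33 and 0.34, were not called, and Pmaip1, Bik and Hrk were not tested because they were too dim. Of the 2 effectors tested, Bak1 lay at 0.23 and Bax at -0.59 (limma adjusted p 0.206 and 0.0523), and neither was called. Bax lay near the threshold: it passed as lower in 8 of 15 alternatives, the replicate block among them (adjusted p 0.0222), failed with any 1 array left out, and turned to 0.15 without scaling.

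**Figure D4:**
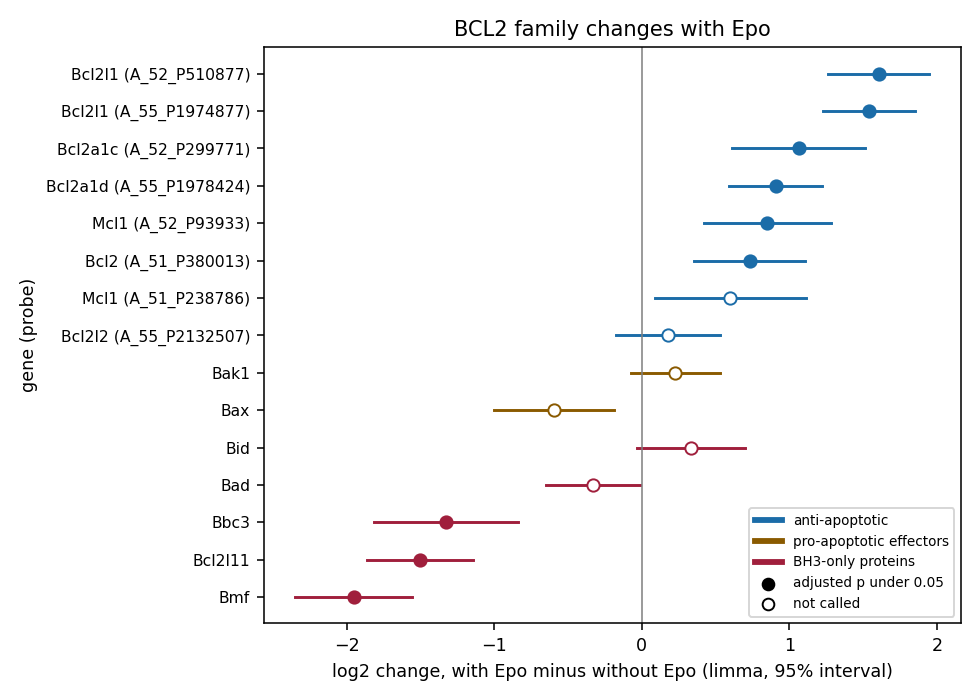
Log2 change with Epo (x axis) with its 95% interval for the 8 anti-apoptotic probes, the 2 effectors and the 5 BH3-only genes (y axis), filled where the limma adjusted p was under 0.05. The called anti-apoptotic probes lie between 0.73 and 1.61 and the called BH3-only genes between -1.95 and -1.32.

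Lists of genes that act around the family are read against 12.5% of genes higher and 13.4% lower overall. Among 6 other BCL2 relatives 1 rose, Bcl2l14, by 0.68 (limma adjusted p 0.035). Among 10 genes of the apoptosome and caspases Diablo, an antagonist of caspase inhibitors, rose by 0.61 and Casp9, the initiator caspase of the mitochondrial route, fell by 0.55 (limma adjusted p 0.025 and 0.038). Their medians, -0.0012 and -0.24, compare with -0.062 for all genes tested, each read by its brightest probe. Of 7 inhibitors of caspases and death receptor signalling 1 fell, the ubiquitin ligase gene Birc2, by 0.83 (limma adjusted p 0.015), and the list median was -0.20. Among 9 genes of MCL1 and BCL2 turnover and their co-factors 1 rose, with a list median of 0.23. It was Fbxw7, whose product marks MCL1 for degradation, at 0.70 (limma adjusted p 0.046), with a second probe at 0.18. With the replicate block the Fbxw7 call was lost (adjusted p 0.0568). With 1 array left out, the calls of Diablo, Casp9 and Fbxw7 were lost whichever array it was, with adjusted p from 0.0712 to 0.140, 0.0905 to 0.193 and 0.0662 to 0.181. Bcl2l14 kept its call only without replicate 1 of the group lacking Epo (adjusted p 0.0491), and otherwise reached 0.0929 to 0.157. Birc2 lost its call when either array with Epo was dropped (adjusted p 0.0690 and 0.0725) and lay at -0.083 without scaling, while Casp9 lay at 0.20 there.

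Of 11 kinases that phosphorylate BAD or MCL1, 3 rose and 1 fell, and the list median was 0.18. The rises were Pim1, Pim3 and Pim2, survival kinases that inactivate BAD, at 3.70, 2.32 and 1.51 (limma adjusted p 0.0037, 0.0047 and 0.017). The fall was Rps6ka1, at -0.48 (limma adjusted p 0.045), which lay at 0.27 without scaling and lost its call whichever array was left out (adjusted p 0.117 to 0.236). Of 12 transcription factors with known targets in the family 2 rose and 1 fell, with a list median of -0.059. Nfkb1 and Atf4 rose by 1.02 and 0.94 (limma adjusted p 0.0093 and 0.017), Atf4 losing its call without replicate 1 of the Epo group (adjusted p 0.0765). Bcl6, a repressor, fell by 2.66 (limma adjusted p 0.0046). Stat5a and Stat5b, the signal carriers of the Epo receptor, were not called, at -0.29 and -0.48. Without scaling they turned to 0.45 and 0.27, and with the replicate block Stat5b passed as lower (adjusted p 0.0292).

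The genes closest to Bcl2l1 in pattern, by Euclidean distance between the 4 centred values of the downstream Bcl2l1 probe and those of another gene, were P2ry1 (0.027), Xbp1 (0.035) and Pdcd1lg2 (0.038). Their changes were 1.52, 1.57 and 1.57. The second Bcl2l1 probe lay at 0.091, and 15 probes lay closer than it. With 4 arrays this measure says little beyond the size of the change.

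RefSeq windows of 300 bases around annotated starts (250 before, 50 after; GRCm38.p6) matched all 8 genes, with 10 windows in all. The STAT-type motif TTCNNNGAA, searched on both strands, was in 0 of the 10 and in 8.3% of all 32851 windows. With so few windows and a motif of that share, a count of 0 says little. Sites outside these windows were not searched. The kappa-B consensus was in 1 of the 3 Bcl2l1 windows and in 4.51% of all. The ETS-type motif GAGGAAGT, chosen after the sequences were seen, was in the windows of all 4 Bcl2a1 copies and in 3.2% of all. The copies are near-identical, so these matches are not independent. The stretch that holds it, upstream of the start in each copy, is given here with the motif in capitals to show how alike the copies are, at chr9:88956780-88956836, chr9:89199089-89199145 and chr9:114329885-114329941 on the plus strand and chr9:88731934-88731984 on the minus strand.
Bcl2a1a: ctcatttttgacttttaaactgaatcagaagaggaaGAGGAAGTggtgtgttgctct
Bcl2a1b: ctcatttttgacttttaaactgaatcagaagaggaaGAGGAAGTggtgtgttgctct
Bcl2a1c: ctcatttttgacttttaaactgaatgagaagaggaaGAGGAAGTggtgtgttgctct
Bcl2a1d: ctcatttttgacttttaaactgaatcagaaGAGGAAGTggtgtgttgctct
The stretches of Bcl2a1a and Bcl2a1b were identical over 57 bases. That of Bcl2a1c differed by C26G, counted from 1 at the 5′ end with the Bcl2a1a base first, and that of Bcl2a1d was 6 bases shorter with no other change.

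The identity of the cells was checked on marker genes. Of 10 myeloid progenitor markers 9 were well above background on all 4 arrays, and Kit was on none. Of 8 lymphoid, 8 macrophage, 9 erythroid and 6 stromal markers, 2, 4, 5 and 2 were well above background on all 4 arrays. The erythroid Alas2 and the lymphoid Cd79a and Ms4a1 were on none, whereas the erythroid Gata1, Klf1 and Hba-a2 and the lymphoid Cd4 and Cd3e were on all 4. Gata1, Cd4 and Cd3e fell with Epo, by 0.68, 0.81 and 1.14 (limma adjusted p 0.026, 0.020 and 0.018). None of these 3 calls held without scaling, where Gata1 turned to 0.070 and Cd4 and Cd3e lay at -0.063 and -0.40, or without either array with Epo (adjusted p 0.0534 to 0.117). The stromal Pdgfrb also fell, from 7.78 and 7.81 without Epo to 5.25 and 5.44 with Epo (limma adjusted p 0.0046). Thy1, the other stromal marker tested, lay at 0.18 and was not called. In the myeloid progenitor list 1 gene fell and 0 rose. It was Cebpa, with a change of -0.74 (limma adjusted p 0.029). Pdgfrb, Thy1 and Cebpa were not run under the alternatives. The summed scaled signal of the macrophage list ran from 4718 to 4811 without Epo and from 5350 to 5617 with Epo. Its members did not move together: Adgre1 rose by 1.03 and Csf1r fell by 0.79 (limma adjusted p 0.010 and 0.016), C1qc at -0.41 and Cd68 at 0.078 were not called, and the list median was -0.17. The Csf1r call was lost without scaling (-0.042) and without either array with Epo (adjusted p 0.0866 and 0.0699). The summed signal of the lymphoid list ran from 1225 to 1430 without Epo and from 681 to 722 with Epo, that of the erythroid list from 12553 to 14334 and from 8864 to 8907, that of the stromal list from 418 to 440 and from 224 to 332. The myeloid progenitor list ran from 177011 to 178515 without Epo and from 149780 to 159635 with Epo. All these sums are of signals not on the log2 scale, so the brightest genes weigh most. The brightest was Gata1 in the erythroid list and Ctsg in the myeloid progenitor list. Among the stromal genes Pdgfrb was brightest on both arrays without Epo, and Thy1 on both with Epo. In the stromal list Col3a1 read 6.73 on replicate 1 with Epo and 1.42 on replicate 2 (log2). The part of these marker shifts in the changes of the BCL2 family was not tested. In such bulk RNA a change in the kinds of cells present and a change in RNA per cell cannot be told apart.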

How the data were processed

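Total RNA (200 ng per sample, per the labels' protocols) was amplified from the poly(A) tail, labelled with Cy3 and hybridised to Agilent mouse arrays, all 4 on 1 slide. The deposited files hold, per the file headers, Feature Extraction 10.1.1.1 output: a background-subtracted, spatially detrended intensity for each of 62976 spots, the raw mean and background intensities, and flags (other columns of the deposited files) for spots well above background, saturated or outlying. The authors did not scale these values between arrays. Of tools, the submitters' processing notes list limma, with no role given.

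Here the log2 intensity minus each array's 75th percentile over 59305 non-control spots was used, with the mean percentile added back. The percentiles were 224 and 250 in the cells lacking Epo, 347 and 454 in those given it. Spots marked as outliers were dropped (9 probes), spots of a probe were averaged, and 0 gene spots were saturated. A probe was kept if 1 group or both had it well above background on each array. Every kept probe was fitted with limma 3.58.1 in R 4.3.3 (lmFit, eBayes, two-sided, 4.58 total degrees of freedom), with Benjamini-Hochberg adjustment over all 23735 probes and a threshold of 0.05. Lists use the brightest probe of a gene, and file names were updated through a RefSeq table of GRCm38.p6.

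The members, lists and rules were chosen with earlier results of these data known. The text names every member probe, pro-apoptotic members that passed, up to 4 passing genes per other list, and the 3 genes nearest Bcl2l1; Bax, other genes without a call and the marker genes were added after their values were seen.

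The design text gives 2 independent experiments, and the replicate numbers were read as those, which pairs samples across groups. Same-numbered deviations from the group means correlated at 0.378 across probes, which are not independent replicates, and 6 of 8 member probes deviated to the same side in both groups. Alternatives are given in the closing section. Some marker genes are not reported here by name.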

Additional observations from a re-analysis of the deposited data

How the results depend on the processing

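The direction of the 8 member probes held under all 15 alternatives. Without a filter on dim probes 55672 probes were tested and limma called 0, with 9494 at an unadjusted p under 0.05. There 0 member probes and 0 list genes were called. The changes stayed at 1.61 and 1.54 (Bcl2l1), 1.06 (Bcl2a1c), 0.91 (shared Bcl2a1 probe), 0.85 (upstream Mcl1 probe) and 0.73 (Bcl2). Their limma adjusted p ran from 0.140 to 0.173. The downstream Mcl1 probe passed without scaling (1.34), with the normexp background (0.70), with the replicate block (0.60), with an intensity trend in the prior (0.60) and with probes averaged (0.72), and Bcl2l2 passed without scaling (0.92). The probes called, 6143 in all, were 11806 without scaling and 9587 with the replicate block, and the 15 list genes called were 31 and 26. With 1 array left out, the lone array of its group being assumed to vary like the others, 2455 to 4992 probes, 2 to 6 member probes and 8 to 11 list genes were called. The changes then ran from 0.60 to 0.86 for Bcl2 and from 0.69 to 1.01 for the upstream Mcl1 probe. They ran from 0.90 to 1.22 for Bcl2a1c and from 0.86 to 0.95 for the shared Bcl2a1 probe. Among the other genes run under the alternatives, those that turned sign without scaling were Bax (0.15), Bad (0.42), Casp9 (0.20), Rps6ka1 (0.27), Stat5a (0.45), Stat5b (0.27), C1qc (0.34) and Gata1 (0.070). The block changed no other member call; among these other genes it ended the call of Fbxw7 and added Bax, Stat5b and C1qc. With 1 probe per gene or probes averaged, the probe of Bcl2l1 and of Mcl1 with the lower mean signal has no value of its own. Signal close to background left the second Bcl2l2 probe without a test.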
